A study of Homo sapiens with 18 samples.

Results

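Human chromosome 19 is known for its dense tandem clusters of zinc finger (ZNF) genes. Members were chosen by symbol, ZNF followed by digits with or without a closing letter, among chromosome 19 genes that GENCODE release 44 lists as protein-coding in its GRCh37 (hg19) version. This gave 246 members of the 20162 protein-coding genes of chromosomes 1 to 22, X and Y, after 3 read-through genes of that name were left out. The other 1231 protein-coding genes of chromosome 19 were the reference, and 18 of them carry another C2H2 zinc finger name. Of the members, 232 lay in 10 clusters, defined as at least 5 members with no more than 500 kb between neighbours.

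DNA:RNA hybrids were mapped by DRIP-seq, in which the S9.6 antibody precipitates hybrids from genomic DNA cut with restriction enzymes. The cells were HCT116, an established human colorectal carcinoma line. They were untreated (NT) or exposed to 10 μM camptothecin (CPT), which traps topoisomerase I (Top1) on DNA as Top1ccs, for 5 or 60 min. The paper states that the DRIP-seq protocol included a recovery step between the end of CPT and lysis. It reports that such a step let Top1ccs reverse, so the times give the exposure and not the moment of lysis. Both the treated and the untreated cells were sampled in 2 biological replicates. From every replicate came an input library, a DRIP library and a second DRIP library of DNA first digested with RNase H, which destroys the RNA of a hybrid, 18 libraries in all. The 12 DRIP and RNase H libraries had a peak list. A peak list holds presence above a threshold and neither expression nor strand, so the identity of the cells could not be checked from marker genes.

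Most ZNF genes of this chromosome code for repressors in which a KRAB domain is followed by an array of C2H2 zinc fingers. The fingers bind DNA, often in transposable elements, and the KRAB domain recruits TRIM28, which brings the histone methyltransferase SETDB1 and HP1 proteins. The clusters arose by repeated duplication, and the finger array of such a gene usually lies in a single long last exon. In these data the last exon of the canonical transcript had a median of 3302 bp in 243 members with 2 or more exons, against 696 bp in 1190 reference genes.

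The genes differed from their neighbours in sequence as well. The rest of the body outside the TSS window, 2 kb on each side of the transcription start site (TSS), had a median GC content of 42.8% in members and 53.1% in the reference. The 5 enzymes used, Hind III (AAGCTT), Eco RI (GAATTC), Xba I (TCTAGA), Ssp I (AATATT) and Bsr GI (TGTACA), cut the members at a median of 1.66 sites per kb and the reference at 0.741. The restriction fragment that holds the TSS had a median of 1774 bp in members and 2609 bp in the reference. Promoters differed less, since the median CpG observed/expected ratio within 500 bp of the TSS was 0.687 in members and 0.625 in the reference.

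The promoters of 3 members are printed because they stand for behaviours described below, a TSS peak in every DRIP list (ZNF787), a TSS peak in the CPT lists alone (ZNF121), and a TSS peak in NT that was missing at 5 min (ZNF653). Each runs from 250 bases before the TSS, is 300 bases long and is given 5′ to 3′ on the strand of the gene, the minus strand in each case. Capitals mark CpG dinucleotides, which read the same on both strands. A peak that met the TSS window need not cover the printed bases. No DRIP peak covered those of ZNF121. Of the NT peaks of ZNF653, that of replicate 2 alone covered them.
ZNF787 (GRCh37, chr19:56632615-56632914): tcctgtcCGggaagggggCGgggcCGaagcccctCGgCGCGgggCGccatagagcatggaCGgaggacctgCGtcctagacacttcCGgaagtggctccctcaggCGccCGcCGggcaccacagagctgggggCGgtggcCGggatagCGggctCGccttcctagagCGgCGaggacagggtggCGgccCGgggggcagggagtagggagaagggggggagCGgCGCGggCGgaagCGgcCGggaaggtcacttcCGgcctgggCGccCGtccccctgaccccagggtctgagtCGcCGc
ZNF121 (GRCh37, chr19:9695131-9695430): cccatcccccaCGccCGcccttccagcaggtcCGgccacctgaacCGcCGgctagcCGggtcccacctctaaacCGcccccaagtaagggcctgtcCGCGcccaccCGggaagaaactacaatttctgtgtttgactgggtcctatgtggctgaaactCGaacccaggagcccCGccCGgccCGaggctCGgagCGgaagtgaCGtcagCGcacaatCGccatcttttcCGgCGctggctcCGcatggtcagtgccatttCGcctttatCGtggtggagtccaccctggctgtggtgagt
ZNF653 (GRCh37, chr19:11616605-11616904): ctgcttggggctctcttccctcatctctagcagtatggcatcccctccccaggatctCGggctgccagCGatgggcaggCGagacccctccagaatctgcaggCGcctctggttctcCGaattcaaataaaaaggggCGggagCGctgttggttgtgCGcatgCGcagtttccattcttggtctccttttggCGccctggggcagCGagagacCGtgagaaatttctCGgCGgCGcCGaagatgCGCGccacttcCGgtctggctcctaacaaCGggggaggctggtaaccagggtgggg
These promoters held 32, 24 and 20 CpG and were 75%, 64% and 61.3% GC. A CG was present in 99.6% of the promoters of members and in 99.3% of those of the reference over the same 300 bases, with medians of 18 and 17 per promoter.

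DRIP peaks at these genes often ended where the DNA had been cut. Of the peak edges at members, 15.1 to 21.6% in the 6 DRIP lists lay within 2 bp of a plus-strand cut, against 14.3 to 17.3% for other peaks of chromosome 19. Cuts of the minus strand were not counted, so an edge such as the Hind III end of ZNF121 below is not in these shares. The sites below are shown because each set an edge of a body peak in 3 of the 6 DRIP lists for a member named by rule. They are given on the plus strand with the recognition site in capitals (Xba I and Hind III for ZNF121, Ssp I for ZNF431, Hind III for ZNF585B).
ZNF121, Xba I (GRCh37, chr19:9681461-9681490): tggccaggatggTCTAGAactcctggcctc
ZNF121, Hind III (GRCh37, chr19:9693250-9693279): ccaggtgattaaAAGCTTtattgctcatac
ZNF431, Ssp I (GRCh37, chr19:21327951-21327980): agagctaaggctAATATTgagcctacaaaa
ZNF585B, Hind III (GRCh37, chr19:37699951-37699980): aattattggttgAAGCTTgaattgctataa
A peak can therefore extend over a whole restriction fragment, and a window met by a peak does not place the hybrid at a base.

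The DRIP lists held 30314 to 72879 peaks, of which 6.86 to 10.9% lay on chromosome 19, and the RNase H lists held 473 to 67188. Replicate 2 gave the longer list in each treatment and kind of library. The RNase H lists of replicate 2 were far longer than those of replicate 1 after CPT (50353 and 67188 peaks against 3439 and 5392), so a peak in a CPT list was often also called in the digested sample. The RNase H lists are therefore set beside the shares over all members and the calls of single members, whereas the profile along the gene is given for DRIP alone. No list carried read counts, and the read depth of each library, which the study lists separately, was not used here.

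The ZNF genes were poorer in DRIP peaks than the genes around them in every DRIP list, with all peaks counted. A peak met the TSS window of 16.7 and 28.9% of members in NT, 13.8 and 31.3% after 5 min of CPT and 28.5 and 41.5% after 60 min (replicates 1 and 2). The reference stood at 49.6 and 67.9% in NT, 37.4 and 56.9% at 5 min and 50.8 and 65.0% at 60 min. The mean difference over the 6 libraries was -27.8 percentage points, with members below the reference in 6 of 6 libraries (exact sign-flip test over 6 libraries, two-sided p = 0.03125, the smallest it can give). With peaks met by RNase H left out it was -17.5 points and no longer past 0.05 (exact sign-flip p = 0.0625). Members were then below the reference in most libraries but not in every one. Over all protein-coding genes the shares were 20.5 and 35.2% in NT, 21.7 and 39.7% at 5 min and 33.1 and 50.8% at 60 min, so members lay below the average gene as well in each list, by less.

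The same order held in the other windows. In the rest of the body the mean difference from the reference was -28.7 points, and in the 5 kb past the 3′ end it was -35.5 points (p = 0.03125 each, exact sign-flip test over 6 libraries). With peaks met by RNase H left out the body difference was -21.0 points and no longer past 0.05 (exact sign-flip p = 0.0625), again without members being lower in every library. Past the 3′ end a peak met 13.0 and 20.7% of members in NT, 10.2 and 20.3% at 5 min and 15.9 and 23.6% at 60 min, against 32.8 to 69.0% of the reference. Among genes of 10 to 50 kb alone the differences were -29.6, -37.2 and -38.8 points for the TSS, body and 3′ windows (p = 0.03125 each, exact sign-flip test). Members were not independent of each other or of the reference, because 53 of 246 shared a TSS window with another protein-coding gene, and 87, 82 and 105 had another gene in the TSS, body or 3′ window.

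**Figure D1:**
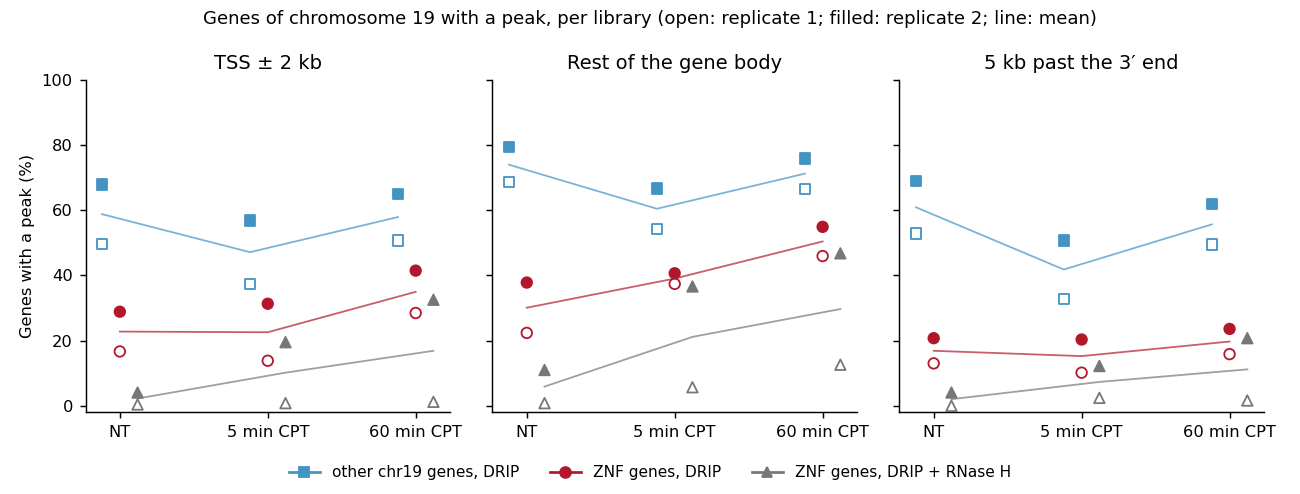
Percent of genes met by a peak in each library (y axis) by treatment (x axis), for the TSS window, the rest of the body and the 5 kb past the 3′ end; squares are other chromosome 19 genes and circles ZNF genes in DRIP, triangles ZNF genes in DRIP digested with RNase H, open symbols replicate 1, filled symbols replicate 2, lines the mean. ZNF genes lie below the reference in each window, and their body share at 60 min (45.9 and 54.9%) lies above both NT values (22.4 and 37.8%).

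After 60 min of CPT a larger share of ZNF gene bodies held a peak than in NT in both libraries, which was not the case for the reference. The body share of members was 22.4 and 37.8% in NT, 37.4 and 40.7% at 5 min and 45.9 and 54.9% at 60 min. The NT and 60 min values did not overlap, with a mean difference of 20.3 points (30.1 ± 10.9% against 50.4 ± 6.33%, SD, n = 2), but 2 libraries against 2 cannot go below p = 0.333 in the exact permutation test, which this comparison gave. At 5 min the mean difference was 8.94 points (exact permutation p = 0.667). Over all protein-coding genes the body shares were 42.4 and 53.4% in NT, 44.5 and 57.7% at 5 min, then 54.4 and 67.1% at 60 min, where NT and 60 min did not overlap either, so the higher share at 60 min was not particular to the ZNF genes. The reference body shares were 68.6 and 79.3% in NT, 54.2 and 66.7% at 5 min and 66.5 and 75.9% at 60 min. The gap between members and reference was thus smaller after CPT by 22.4 points at 5 min and 23.1 points at 60 min, with no overlap between the treatments (exact permutation p = 0.333 each, the smallest possible).

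The RNase H lists also met more member bodies after CPT. In the digested libraries 0.813 and 11% of member bodies had a peak in NT, 5.69 and 36.6% at 5 min and 12.6 and 46.7% at 60 min. DRIP exceeded RNase H in each of the 6 pairs of libraries, by a mean of 20.9 points in the body, 17.0 points at the TSS and 10.4 points past the 3′ end (exact sign-flip test over 6 pairs, p = 0.03125 each). For the body, the excess was 21.6 and 26.8 points in NT. After 5 and 60 min of CPT it was 31.7 and 33.3 points in replicate 1, above the NT value of that replicate, and 4.06 and 8.13 points in replicate 2, below it. Each DRIP list was longer than its RNase H partner. Over all protein-coding genes the DRIP body share also exceeded RNase H in each pair, and so it did in the reference. The mean body shares of all genes in NT, at 5 and at 60 min were 47.88, 51.06 and 60.74% in DRIP. In RNase H they were 12.01, 30.25 and 38.3%, and 23.81, 37.27 and 44.42% in the reference. Neither the excess nor the RNase H rise was thus particular to the ZNF genes. The part of RNase H-resistant signal in the higher shares after CPT was not tested.

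At the TSS and past the 3′ end the members' shares changed less. The TSS share was 12.2 points higher at 60 min than in NT (exact permutation p = 0.667), and the difference at 5 min was -0.203 points (p = 1 in the same exact test). Past the 3′ end the mean differences were -1.63 points at 5 min and 2.85 points at 60 min (exact permutation p = 0.667 each). The gap to the reference was smaller by 11.4 and 13.1 points at the TSS, and by 17.5 and 8.09 points past the 3′ end, at 5 and 60 min (exact permutation p = 0.333 each). At 5 min the TSS share of the reference was 12.3 and 11.1 points below its NT value in replicates 1 and 2.

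Along the gene, the 60 min lists stood above NT from 2 to 10 kb after the TSS. From 2 to 5 kb after the TSS a peak covered 3.82 and 7.57% of members on average in NT, 4.70 and 8.32% at 5 min and 8.86 and 23.7% at 60 min. From 5 to 10 kb the values were 2.37 and 4.48% in NT, 2.63 and 4.52% at 5 min and 6.16 and 15.7% at 60 min. The 60 min values exceeded both NT values in each band. In the last 5 kb of the genes they were 2.94 and 6.16% in NT and 3.31 and 7.47% at 60 min, which overlapped. From 2 to 10 kb the reference was also higher at 60 min than in NT within each replicate, though its treatments overlapped. From 2 to 5 kb it stood at 21.6 and 35.9% in NT and at 26.85 and 41.7% at 60 min. From 5 to 10 kb it stood at 19.4 and 33.8% in NT and at 23.8 and 39.1% at 60 min.

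By gene part, first introns of members had 2.90 and 5.85% of their bases under a peak in NT and 7.11 and 16.5% at 60 min. The other introns had 1.02 and 2.55% in NT and 2.50 and 7.63% at 60 min. Last exons, which hold the finger arrays, had 1.53 and 3.42% in NT and 2.40 and 5.19% at 60 min. The 60 min values of first introns lay above both NT values, whereas those of last exons and of other introns overlapped NT. In the RNase H lists the first introns stood at 0.0103 and 0.396% in NT and at 0.166 and 9.68% at 60 min. In the reference the first introns stood at 13.9 and 25.05% in NT and at 17.5 and 29.7% at 60 min. They too were higher at 60 min within each replicate, with overlap between the treatments. The reference last exons stood at 23.9 and 39.7% in NT and at 17.1 and 28.8% at 60 min.

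**Figure D2:**
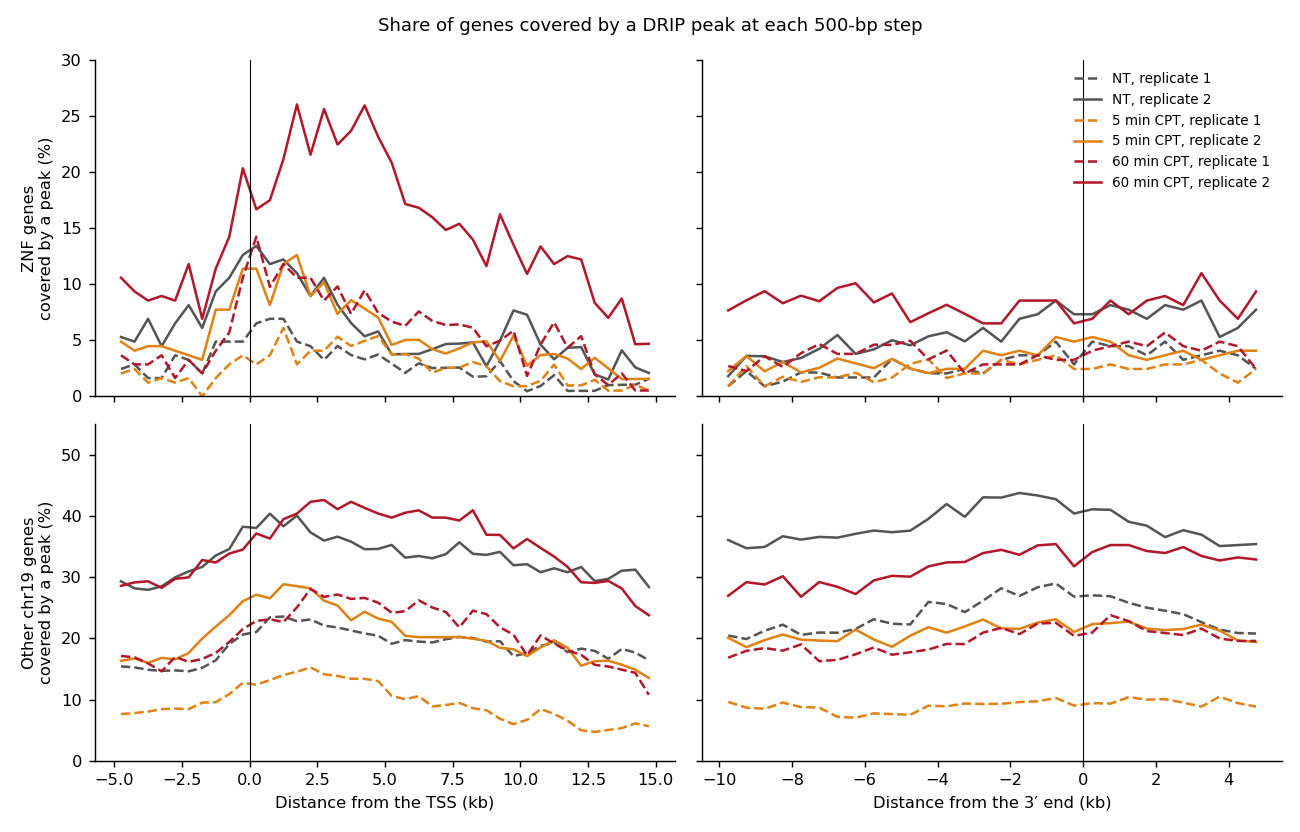
Percent of genes covered by a DRIP peak (y axis) at 500-bp steps around the TSS (left) and the 3′ end (right), for ZNF genes (top) and other chromosome 19 genes (bottom, wider y axis); each line is 1 library, dashed for replicate 1 and solid for replicate 2, grey NT, orange 5 min and red 60 min of CPT, and steps beyond the other end of a gene are left out. In ZNF genes the 60 min replicate 2 library stands highest downstream of the TSS, with 23.7% from 2 to 5 kb.

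Single members were then called gained when both CPT libraries and neither NT library had a peak, and lost for the reverse. In the body, 19 of 246 members (7.72%) were gained at 5 min, where 5.18% of all genes were, and 3 (1.22%) were lost, where 2.75% of all genes were. At 60 min 37 (15%) were gained in the body against 9.15% of all genes, and 4 (1.63%) were lost against 1.54%. Only a gene without an NT peak can be gained, and members had few. Of the 143 members with no body peak in either NT list, 25.9% were gained at 60 min, close to the 22.3% of all such genes, while 12.8% of 219 such reference genes were. At 5 min the corresponding shares were 13.3% of members, 12.6% of all genes and 4.11% of the reference. Set against all genes without an NT peak, the members' gains were thus near the background.

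At the TSS 4 members (1.63%) were gained at 5 min and 17 (6.91%) at 60 min, with 4.11% and 7.79% of all genes gained. TSS losses were 3 members (1.22%) at 5 min and 0 at 60 min, with 1.64% and 0.937% of all genes lost. Past the 3′ end 1 member (0.407%) was gained and 6 (2.44%) were lost at 5 min, beside 1.44% and 2.96% of all genes. At 60 min 7 (2.85%) were gained and 3 (1.22%) lost there, beside 3.66% and 2.06% of all genes. Each of these TSS and 3′ shares of members lay below the share of all genes, but only a gene with a peak in both NT lists can be lost, and members had few. Of such genes, 3′ losses at 5 min took 20% of 30 members and 16.7% of all genes, and at 60 min 10% and 11.6%. TSS losses at 5 min took 8.11% of 37 members and 8.62% of all genes, and body losses at 60 min 8.89% of 45 members and 4.18% of all genes. TSS losses at 60 min took 0 of 37 members and 4.94% of all genes. Among genes with no NT peak, TSS gains took 2.34% of members and 6.50% of all genes at 5 min, and 9.94% and 12.3% at 60 min. Gains past the 3′ end took 0.518% and 2.09% at 5 min and 3.63% and 5.31% at 60 min, so these gains stayed below all genes. Of the members gained in the body, 12 were gained at both times. Peaks of the 2 replicates overlapped within the body in 10 of 19 members gained at 5 min and in 27 of 37 at 60 min, and in the others the replicates had peaks at different places.

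RNase H lists again stand beside these calls. Of the 37 members gained in the body at 60 min, 29 had a body peak in the RNase H list of replicate 2 and 4 in that of replicate 1, which left 7 with none. Of the 19 gained at 5 min, 9 had no body peak in either RNase H list of that treatment, and of the 17 gained at the TSS at 60 min, 5 had none. The 60 min RNase H list of replicate 2 met the body of 46.7% of all members and 63.9% of all genes. That of replicate 1 met 12.6% and 12.7%. At 5 min the body shares in replicate 2 were 36.6% and 52.9%. The TSS shares in replicate 2 at 60 min were 32.5% and 41.55%.

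The gained members with the highest ranks are named by rule. For each, the value is the percentile of the fold enrichment of its best peak among all peaks of that list, so that lists of different depth can be set side by side. ZNF121 (chr19:9671005-9695180, minus strand, cluster 2) had no TSS or body peak in either NT list. Its best TSS peak stood at percentiles 99.3 and 95.8 at 5 min and 96.8 and 88.9 at 60 min. The 5 min peaks over the start of its body spanned 3237 bp at 11.4-fold over input in replicate 1 and 1869 bp at 8.53-fold in replicate 2. Both ended at 9693266, at the Hind III site printed above, about 2 kb downstream of the TSS, so that they met the TSS window at its downstream edge alone. The peaks nearer the TSS ranked lower, at 0.251 and 24.4 at 5 min and 74.4 and 67.3 at 60 min. In the RNase H lists of replicate 2 it stood at 98.6 and 94.7 at 5 and 60 min, and in those of replicate 1 it had no peak.

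ZNF302 (chr19:35168544-35177302, plus strand, cluster 5) behaved likewise at the TSS. It had none in NT, 65.3 and 87.4 at 5 min and 83.7 and 92.8 at 60 min, and an RNase H peak at 71.0 in 60 min replicate 2 alone. Its best peak reached the TSS itself in 60 min replicate 2 alone. ZNF616, ZNF791 and ZNF460 had a TSS peak in both 60 min lists and in 5 min replicate 2, and in none of the NT lists. Their 60 min percentiles were 86.6 and 83.3 for ZNF616, 72.3 and 91.9 for ZNF791 and 54.5 and 84.4 for ZNF460. ZNF585A (51.0 and 60.2) and ZNF230 (14.2 and 9.54) had a TSS peak in both 5 min lists only. In the RNase H lists of replicate 2 ZNF791 stood at 51.2 and 83.1 and ZNF460 at 67.96 and 82.01 at 5 and 60 min, ZNF616 at 57.3 at 60 min alone and ZNF585A at 50.4 at 5 min alone.

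In the body, ZNF431 (chr19:21324827-21378856, plus strand, cluster 4) had no NT peak and stood at 87.6 and 87.8 at 5 min and 87.3 and 94.8 at 60 min. The 87.6 of 5 min replicate 1 belongs to a last-exon peak at chr19:21365907-21366582, of a kind described below, and the other ZNF431 peak of that list stood at 2.68. ZNF585B stood at 93.2 and 86.3 at 5 min and 82.2 and 73.6 at 60 min, again with no NT peak. ZNF100 stood at 85.5 and 64.7 at 5 min and 18.1 and 75.5 at 60 min, and ZNF20 at 66.2 and 76.4 at 5 min with a peak in 1 of the 2 lists at 60 min. For ZNF100 the midpoints of the 5 min peaks lay 36067 to 40567 bp from the TSS and those of the 60 min peaks 3984 to 7372 bp from it, and the 85.5 again belongs to a last-exon peak (chr19:21909374-21910253). In the RNase H lists of replicate 2 ZNF431 stood at 10.98 and 88.5 and ZNF585B at 43.5 and 76.5 at 5 and 60 min, and ZNF100 at 46.01 at 60 min alone. ZNF557 (92.9 and 96.2), ZNF700 (83.7 and 95.4) and ZNF552 (82.6 and 86.4) led the other members gained at 60 min.

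Losses were fewer than gains in the body and at the TSS at 60 min. ZNF653, which codes for a repressor of nuclear receptor activity, had its TSS peak at 88.8 and 95.8 in NT, none at 5 min, and 40.1 and 52.3 at 60 min. Past its 3′ end it stood at 75.0 and 89.5 in NT and had no peak in any CPT list. ZNF525 (79.2 and 55.3 in NT) and ZNF446 (45.1 and 4.10) lost the TSS peak at 5 min, and both had a peak in at least 1 list at 60 min. ZNF497 stood at 39.4 and 75.7 in the body in NT, and ZNF285 at 16.3 and 42.0, with no CPT peak in either. ZNF784 (80.02 and 97.1 in NT) had no body peak at 5 min and 79.7 and 93.1 at 60 min. ZNF69 and ZNF154, whose promoter is methylated in many tumours, lost low-ranked body peaks at 60 min.

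ZNF865 (80.02 and 97.1 in NT) shares peaks with its neighbour ZNF784 and lost its 3′ peak at 5 min, as did ZNF497, ZNF446 and ZNF784. ZNF575 (89.0 and 96.8 in NT) had no 3′ peak at 60 min. Gains past the 3′ end at 60 min were led by ZNF574 (90.7 and 99.9), ZNF579 (71.4 and 85.9), ZNF557 (43.3 and 89.7), ZNF317 (22.97 and 49.9) and ZNF350 (73.3 and 11.4), a KRAB repressor that binds BRCA1. ZNF155 was the 1 gain there at 5 min, at 14.2 and 9.54.

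A smaller group carried peaks in every DRIP list. At the TSS 16 members had a peak in all 6 lists and 122 in none. In the body the counts were 29 and 67, and past the 3′ end 13 and 149. In any window, 46 members had a peak in all 6 lists and 53 in none. A larger share of the reference had a peak in all 6 lists. It was 27.62% at the TSS against 6.504% of members, and 57.76% in any window against 18.7%. A smaller share of the reference had none, 22.01% at the TSS against 49.59% of members, and 6.824% in any window against 21.54%. ZNF787 (chr19:56598732-56632664, minus strand, cluster 9) led the TSS group, at 99.5 and 99.7 in NT, 98.9 and 99.0 at 5 min and 99.3 and 98.3 at 60 min. Its peak ended at 56633433, upstream of the TSS, in 5 of the 6 lists and was 4099 to 12519 bp wide. Both 5 min peaks (4099 and 5858 bp) were narrower than both NT peaks (6224 and 12519 bp). Its RNase H lists held a TSS peak in 5 min replicate 2 and in both 60 min replicates.

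ZNF587B had 96.0 and 98.4 in NT, 84.5 and 93.4 at 5 min and 86.2 and 94.1 at 60 min, and the same peaks lie past the 3′ end of ZNF586. ZNF160 had 79.2 and 96.0 in NT, 96.8 and 98.0 at 5 min and 98.6 and 96.4 at 60 min. ZNF57 (97.3 and 96.4 in NT, 87.7 and 75.3 at 5 min, then 92.4 and 96.5 at 60 min) was lower at 5 min than in both other treatments. ZNF837 (80.6 and 74.7 in NT, 99.4 and 99.8 at 5 min, then 94.4 and 99.5 at 60 min) was higher in all CPT lists than in NT. Its best peaks lay upstream and met the window without reaching the TSS, as at chr19:58894164-58904725 in both 5 min lists, with a midpoint at -7048 bp from the TSS. In the RNase H lists of replicate 2 ZNF837 stood at 98.8 and 97.9, ZNF160 at 84.4 and 97.2 and ZNF587B at 70.2 and 88.5 at 5 and 60 min, and ZNF57 at 94.8 at 60 min alone. In the body, ZNF580 and ZNF581 overlap, share their peaks and stood at 99.3 or above in all 6 lists. ZNF574 (92.9 to 99.9) and ZNF766 (90.4 to 99.0) followed. Past the 3′ end ZNF628 (80.7 to 99.4) and ZNF415 (73.1 to 98.6) completed the group.

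The member with a peak in the most RNase H lists was ZNF91, a long cluster 4 gene whose product represses SVA retrotransposons. It had a body peak in all 6 RNase H lists (43.8 and 98.5 in NT, 84.0 and 97.3 at 5 min, then 58.5 and 97.7 at 60 min) and in all 6 DRIP lists (87.3 to 99.7). ZNF580 and ZNF581 had a peak in 5 RNase H lists. In RNase H NT replicate 1 the midpoint of the ZNF91 body peak lay about 70840 bp from the TSS. That is beyond the last exon of its canonical transcript (chr19:23540498-23545527).

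Members with a TSS peak in all lists differed in composition from those with none. The rest of their body was 45.9% GC in the median, against 44.1% for the 108 members with a peak in 1 to 5 lists and 41.4% for the 122 with none. The restriction fragment that holds the TSS was 2541 bp, 2046 bp and 1532 bp in the same order. The CpG observed/expected ratio at the TSS was 0.754, 0.699 and 0.650. The GC skew of the first 1000 bases was 0.0829, 0.0619 and 0.0671 and had no such order. These medians are given as a description. Longer fragments give more DNA per precipitated hybrid, and the part of fragment length in the calls was not tested.

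**Figure D3:**
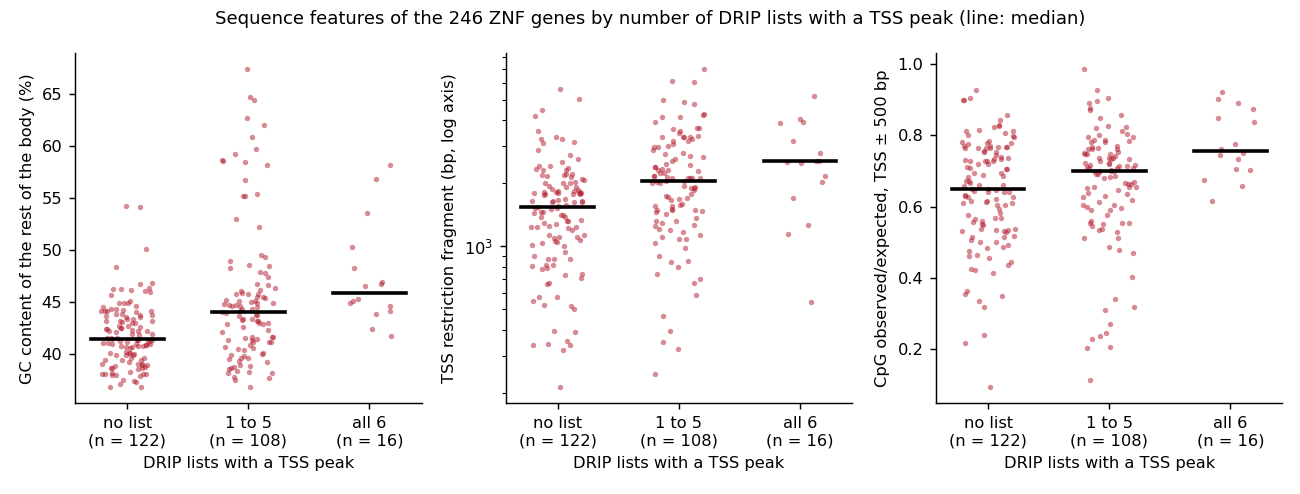
GC content of the rest of the body (%), length of the restriction fragment that holds the TSS (bp, log axis) and CpG observed/expected ratio within 500 bp of the TSS, for each ZNF gene (points) by the number of DRIP lists with a TSS peak (x axis); lines are medians. Medians are higher in the 16 members with a peak in all 6 lists than in the 122 members with none, with wide overlap of the points.

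The clusters differed from each other along the chromosome. Cluster 9 (chr19:55987984-57183151, 16 members, 56.2% body GC in the median) had a TSS peak at 50% of members in every DRIP list other than 5 min replicate 1, where it was 6.25%. Cluster 10 (chr19:57702868-58992597, 43 members) stood at 25.6 and 44.2% in NT and 41.9 and 53.5% at 60 min. Cluster 4 (chr19:19779605-24312770, 37 members, 38.7% body GC) stood at 0 and 5.41% in NT, 8.11 and 13.5% at 5 min and 8.11 and 27.0% at 60 min. In its RNase H lists the TSS share was 2.70% in both NT replicates, and 0 and 10.8% at 60 min. Its 60 min DRIP values lay above both NT values, and it had the lowest body GC and the most restriction sites, 2.30 per kb, of the 10 clusters.

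By the rule, the member with the most TSS lists was ZNF57 in cluster 1, ZNF561 in cluster 2, ZNF627 in cluster 3, ZNF101 in cluster 4, ZNF302 in cluster 5, ZNF146 in cluster 6, ZNF576 in cluster 7, ZNF160 in cluster 8, ZNF787 in cluster 9 and ZNF587B in cluster 10. All of these were in 6 lists apart from ZNF101 (5 lists) and ZNF302 (4 lists). ZNF146 codes for a protein made of zinc fingers alone. Its TSS peak stood at 12.3 and 93.1 in NT, 88.1 and 94.97 at 5 min and 45.7 and 74.1 at 60 min. ZNF561 stood at 21.5 and 59.2 in NT, 80.9 and 94.7 at 5 min and 92.6 and 88.3 at 60 min, higher in each CPT list than in NT.

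**Figure D4:**
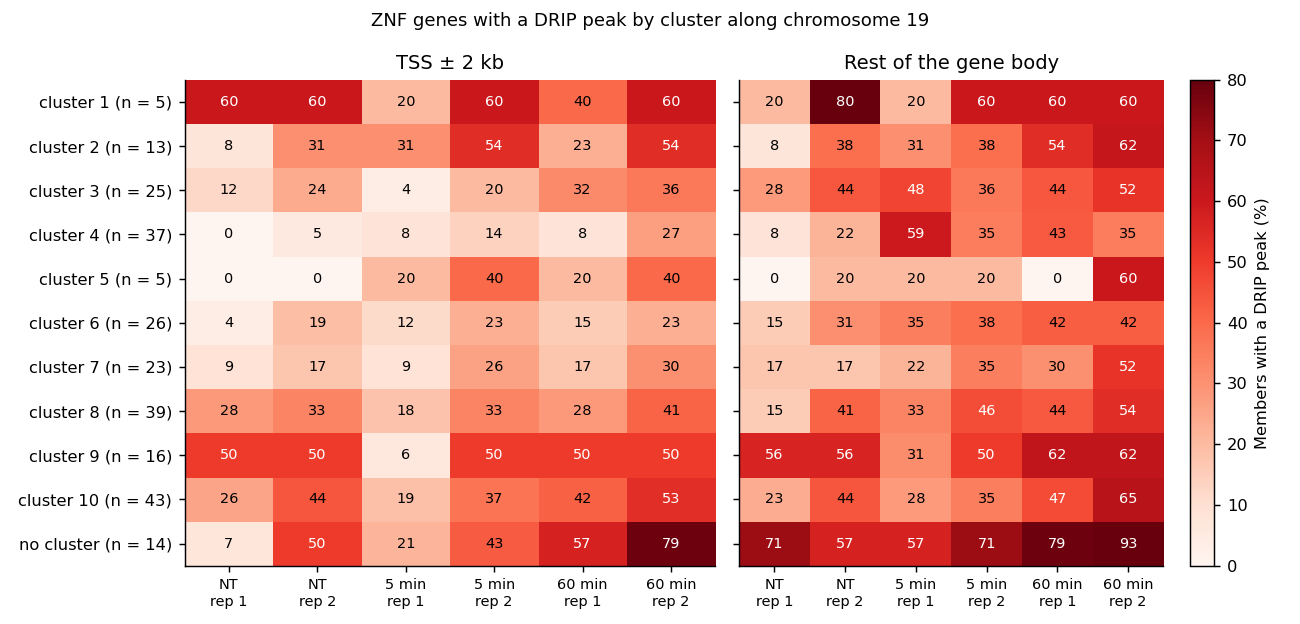
Percent of members with a DRIP peak in the TSS window (left) and the rest of the body (right), by cluster in order along chromosome 19 (rows, with the number of members) and DRIP library (columns); the number in each cell is its percent and the colour scale runs from 0 to 80%. Cluster 4 stands at 8 and 22% in the body in NT and at 59% in 5 min replicate 1.

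One library stood apart in cluster 4. Its body share was 8.11 and 21.6% in NT, 59.5 and 35.1% at 5 min and 43.2 and 35.1% at 60 min, and in no other cluster was 5 min replicate 1 the highest of the 6 DRIP lists. Of the 34 pairs of a member and a body peak in that list, 17 (50%) met a last exon. A peak met the last exon of 16 of 35 members of cluster 4 (45.7%) in 5 min replicate 1 and of 1 in 5 min replicate 2. In both NT lists and in 60 min replicate 1 there were 0, and in 60 min replicate 2 there were 3. In the same 5 min replicate 1 list a peak met 6.25% of the last exons of the other 208 members, 6.92% of those of 260 ZNF genes of other chromosomes and 15.7% of those of 1190 reference genes, each the lowest of the 6 lists. These peaks were singled out after their values were seen.

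The 17 peaks had a median width of 760 bp (340 to 2412 bp) and a median fold enrichment of 4.41 (3.31 to 8.02). ZNF99 held 2 of them, at chr19:22938899-22939820 (8.02-fold) and chr19:22940320-22942072 (5.94-fold). The widest was in ZNF729, 2412 bp at chr19:22497396-22499807. Others lay in ZNF257 (6.01-fold), ZNF431 (5.61-fold), ZNF100 (5.52-fold) and ZNF708 (5.33-fold). In RNase H 5 min replicate 1 a peak met the last exon of 1 member of the cluster. The last exons of cluster 4 were 35.5% GC in the median, against 41.2% in the other members. The share of their 75-base words that recur on chromosome 19 had a median of 0.526%, against 0 in the others. Reads from near-identical finger repeats can be placed at a wrong copy, and the handling of such reads is not given in the sources used here. Whether it plays a part in these peaks was not tested. Without last exons the body share of all members at 5 min was 30.9 and 38.2%, and 15 members in place of 19 were gained there.

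**Figure D5:**
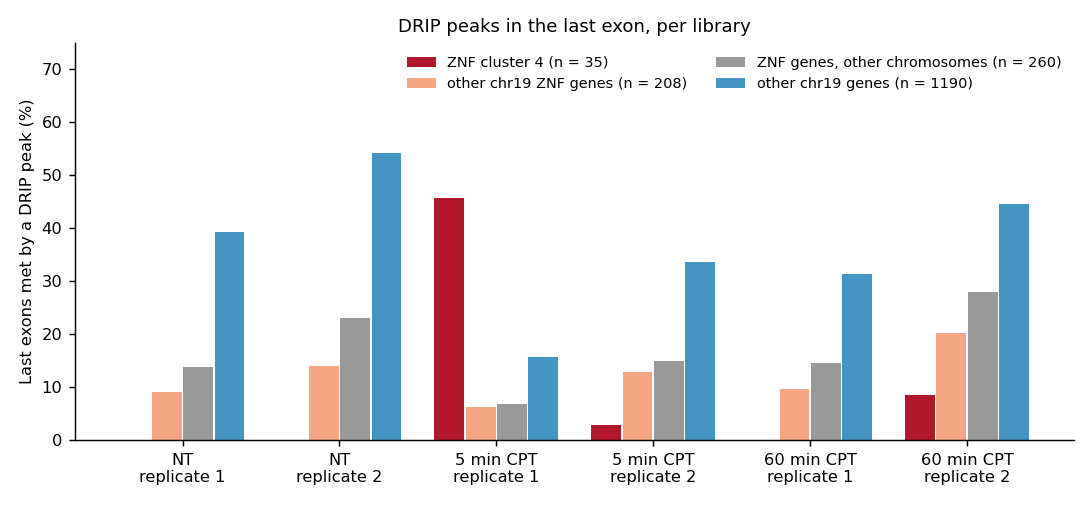
Percent of last exons met by a DRIP peak (bars, y axis from 0) in each DRIP library (x axis), for the 35 ZNF genes of cluster 4, the 208 other ZNF genes of chromosome 19, 260 ZNF genes of other chromosomes and 1190 other chromosome 19 genes. Cluster 4 stands at 45.7% in 5 min replicate 1 and at 0 to 8.57% in the other 5 libraries.

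Genes for the co-repressors that KRAB zinc finger proteins recruit were followed as a list of 17, found on several chromosomes. At the TSS 3 of 17 were gained at 5 min and 4 at 60 min, and 0 were lost at either time, where 4.11% and 7.79% of all genes were gained and 1.64% and 0.937% lost. In the body 3 were gained and 1 was lost at 5 min, and 5 were gained and 0 lost at 60 min, beside 5.18% and 9.15% of all genes gained and 2.75% and 1.54% lost. Past the 3′ end 2 were gained at 5 min and 1 at 60 min, beside 1.44% and 3.66% of all genes, and 0 were lost at either time. At the TSS 7 of 17 had a peak in no DRIP list. These backgrounds cover all genes, not only those without an NT peak, which alone can be gained. The list is short, and its counts are given as a description. TRIM28, the scaffold that binds KRAB domains and a gene of chromosome 19, was gained at the TSS and in the body at both times. SETDB1, the histone H3 lysine methyltransferase, and CBX3, an HP1 protein, were gained at the TSS at both times. Their 5 min peaks stood at percentiles 45.5 and 7.27 for SETDB1 and 0.966 and 96.6 for CBX3, beside 98.9 and 99.4 for TRIM28. At 60 min SETDB1 stood at 59.6 and 91.6 and CBX3 at 61.8 and 91.9. MORC2 and PPHLN1, which take part in silencing by the HUSH complex, were gained in the body at both times. ATRX and CBX3 were gained in the body at 60 min alone. CHD3, a nucleosome remodeller, lost its body peak at 5 min and gained a TSS peak at 60 min. Each gene named here also had a peak in 2 or 3 RNase H lists in the same window.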

How the data were processed

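DRIP-seq peak lists of HCT116 cells covered NT and CPT (10 μM, 5 and 60 min), each in 2 biological replicates. Groups and replicate numbers came from the sample titles. The authors pooled 2 DRIP samples per replicate, trimmed reads with Cutadapt, aligned them with BWA to hg19 and to sacCer3 as yeast spike-in, and took out duplicates and blacklisted regions. MACS2 then compared every single library with its input to call peaks. The calling threshold and tool versions are not given in the sources used here. The deposited fold enrichment is a ratio of the summit over input. Significance is deposited per peak as −log10 p and −log10 q, and the deposited score is a rescaled −log10 q, which entered no result. The lists carry no read counts or spike-in scaling, the read depth of each library, which the study lists separately, was not used here, and a missing peak means below the threshold. The p-values measure the spread between libraries, and with 2 per treatment their number limits the precision.

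The peak lists were joined to GENCODE release 44 on GRCh37. No peak on chromosome 19 ended past position 59118986 of 59128983 bases. A peak met a window with at least 1 bp of overlap. Windows were the TSS with 2 kb on each side, the rest of the gene, and 5 kb past its 3′ end. Fold enrichment was ranked within each list. Shares were compared over libraries with exact two-sided sign-flip or permutation tests (Python 3.11, NumPy, pandas, SciPy). Gained meant a peak in both CPT replicates and neither NT replicate. Exons came from canonical transcripts. Named genes were, per window, the 5 members in all 6 DRIP lists with the highest lowest percentile, up to 5 gained and 5 lost at each time by the same rank, the 3 with most RNase H lists, and the leading member of each cluster. The counting was tested on simulated peak lists with known gains. Alternatives were a stricter −log10 q, lists of equal size, summits, a 1 kb TSS window, peaks not met by RNase H, unshared promoters, a reference without other zinc finger names, a length band, last exons left out and each replicate left out. The members and lists were chosen with earlier results of these data known. Sequences are from GRCh37.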

Additional observations from a re-analysis of the deposited data

Results flagged for a closer look

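Past the 3′ end of the ZNF genes, 5 min of CPT moved the DRIP and the RNase H lists in opposite directions in both replicates. The DRIP share was 13.0 and 20.7% in NT and 10.2 and 20.3% at 5 min. The RNase H share was 0 and 4.07% in NT and 2.44 and 12.2% at 5 min. The mean DRIP change minus the mean RNase H change was -6.91 percentage points, and this difference was not tested. The DRIP change of replicate 2 came from 51 members against 50. All protein-coding genes moved the same ways, from 19.8 and 29.1% to 14.1 and 25.7% in DRIP and from 0.124 and 6.75% to 1.12 and 20.1% in RNase H. So did the reference, from 52.8 and 69.0% to 32.8 and 50.8% in DRIP and from 0.569 and 28.8% to 4.06 and 49.9% in RNase H, so the pattern is not particular to the ZNF genes.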

How the results depend on the processing

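In the mean over libraries, members lay below the reference in all 3 windows under all alternatives run. With peaks met by RNase H left out, the difference was -17.5 points at the TSS and -21.0 points in the body, no longer past 0.05. In these 2 windows members were then below the reference in most libraries but not in every one. A single replicate leaves 3 libraries, for which the exact test cannot go below p = 0.25, and the differences then ran from -29.4 to -26.3 points at the TSS, -29.5 to -27.9 in the body and -39.0 to -32.0 past the 3′ end. DRIP minus RNase H ran from 15.2 to 18.8, 13.0 to 28.9 and 9.21 to 11.7 points in the same order. The body difference of 60 min from NT kept its direction under all alternatives. The TSS difference at 5 min turned positive with summits (0.610 points), and it was 2.44 points without replicate 1 and -2.85 without replicate 2. The 3′ difference at 60 min turned negative with lists of equal size (-0.203) and with peaks met by RNase H left out (-2.85). Causes were not tested. The replicate block left each mean as it was, 20.3 points for the body at 60 min, and changed no call (exact sign-flip test over 2 pairs, smallest p = 0.5). Replicate 2 exceeded replicate 1 by 3.25 to 17.5 points in all treatments and windows.

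Counts moved more. Without 1 replicate the single remaining list of each treatment decided, and the ranges at 5 min were 18 to 22 gained and 16 to 25 lost at the TSS, 37 to 53 and 16 to 30 in the body, and 10 to 21 and 17 to 22 past the 3′ end. At 60 min they were 35 to 41 and 6 to 10, 60 to 73 and 15 to 18, and 14 to 25 and 7 to 18. With −log10 q of at least 3 the body lost 5 at 5 min and 1 at 60 min, and the 3′ window gained 0 and 3. With lists of equal size the TSS lost 5 and 2, the body lost 9 at 5 min, and the 3′ window gained 0 and 4 and lost 5 at 60 min. With peaks met by RNase H left out the TSS gained 2 and 7 and lost 9 and 1, the body lost 6 and 7, and the 3′ window at 60 min gained 3 and lost 6. With summits the TSS lost 5 at 5 min, with the 1 kb window it gained 10 at 60 min, and with unshared promoters the 3′ window lost 1 at 60 min. Without last exons, chosen after seeing the data, 15 bodies were gained at 5 min.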
